A study of Mus musculus with 48 samples.

Results

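The histone deacetylase and DNA methyltransferase genes of the mouse were examined in amygdala and hippocampus after learning-related treatments. The set held 8 genes (Hdac1, Hdac2, Hdac3, Hdac5, Hdac6, Dnmt1, Dnmt3a and Dnmt3b), and every probe set that the platform annotation assigns to one of them was taken. This gave 9 probe sets for 7 of the 8 genes, out of 8251 genes named by a single-gene probe set on the array. The annotation used here names no probe set for Dnmt3b, which was not analysed here.

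RNA was measured on 48 one-colour Affymetrix arrays in 3 arms called FC, CS and NH, which the labels do not spell out. Read from the study's title, which speaks of associative and nonassociative learning, FC was taken as fear conditioning, CS as exposure to the conditioned stimulus alone and NH as naive home cage. Amygdala gave 6 FC, 6 CS and 10 NH arrays, and hippocampus gave 8 FC, 8 CS and 10 NH arrays. The labels give neither strain, age, sex nor the time after treatment, and they do not say that arrays stand for separate animals. The p-values below therefore measure only the spread between arrays, part of which may be technical. The array titles in amygdala can be read as pairs of animal numbers, some of which also occur in hippocampus, so that pooling and shared animals cannot be told from the labels. Each array also carries a processing batch. The amygdala batches were batch 1 with 6 NH arrays, batch 2 with 4 FC, 3 CS and 3 NH arrays, and batch 3 with 2 FC, 3 CS and 1 NH array. The hippocampus batches were batch 4 with 2 FC, 3 CS and 2 NH arrays, batch 5 with 4 FC and 4 CS, batch 6 with 2 FC, 1 CS and 2 NH, and batch 7 with 6 NH.

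Histone deacetylases remove acetyl groups from lysines of histones and other proteins, which generally makes chromatin less open to transcription. Hdac1, Hdac2 and Hdac3 are class I enzymes that sit in nuclear corepressor complexes, Hdac5 is a class IIa enzyme that binds MEF2 transcription factors and leaves the nucleus when calcium-dependent kinases phosphorylate it, and Hdac6 is a mainly cytoplasmic enzyme that deacetylates tubulin. Dnmt1 copies methyl marks onto newly made DNA, whereas Dnmt3a and Dnmt3b set new marks. In rodents, inhibitors of histone deacetylases have been reported to strengthen several forms of memory, and Hdac2 and Dnmt3a have been studied as regulators of memory in the forebrain.

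No probe set of these genes passed the test in any comparison of arms in either tissue. The 7 probe sets that were bright enough to test differed between arms by -0.10 to 0.12 on the log2 scale once batch was taken into account. In amygdala, 0 of 7 were called for FC minus NH, against 0.0939% of all 7453 probe sets tested, 0 of 7 for CS minus NH, against 0.0134%, and 0 of 7 for FC minus CS, against 0.00%. In hippocampus, 0 of 7 were called for FC minus NH and for CS minus NH, against 0.0134% in each, and 0 of 7 for FC minus CS, against 0.00%. With the mean of CS and FC set against NH, 0 of 7 were called in amygdala, against 0.0939%, and 0 of 7 in hippocampus, against 0.0134%. These calls used limma with batch as a block and an adjusted p under 0.05. At an unadjusted p under 0.05, there was 1 of the 7 in amygdala FC minus NH (Hdac5), against 5.15% of all probe sets tested, and none in the other 7 comparisons, against 0.765% to 5.85%. Of the other settings tried, a fit with array weights called Hdac5 in amygdala FC minus NH. That fit called 911 of all 7453 probe sets there. A fit without batch called a Dnmt1 probe set when the mean of CS and FC was set against NH in amygdala. It called 692 of all 7453 in that comparison.

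The same fits called Fos, the activity-induced transcription factor gene used here as a yardstick. In amygdala, Fos was higher by 1.53 ± 0.15 (SE, log2) for FC minus NH (limma, adjusted p = 1.44e-06), and in hippocampus it was higher by 1.09 ± 0.15 (adjusted p = 0.000555). In hippocampus it was the 1 probe set called of 7453 for FC minus NH. Fos changed far more than any of these genes, so its call does not show whether differences of their size would be called. The 95% intervals of the 7 tested probe sets for FC minus NH ran between 0.883-fold (Hdac2) and 1.25-fold (Dnmt1) in amygdala, and between 0.811-fold (Hdac2) and 1.2-fold (Dnmt1) in hippocampus. In whole tissue, fewer cells of a type and less RNA per cell cannot be told apart.

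**Figure D1:**
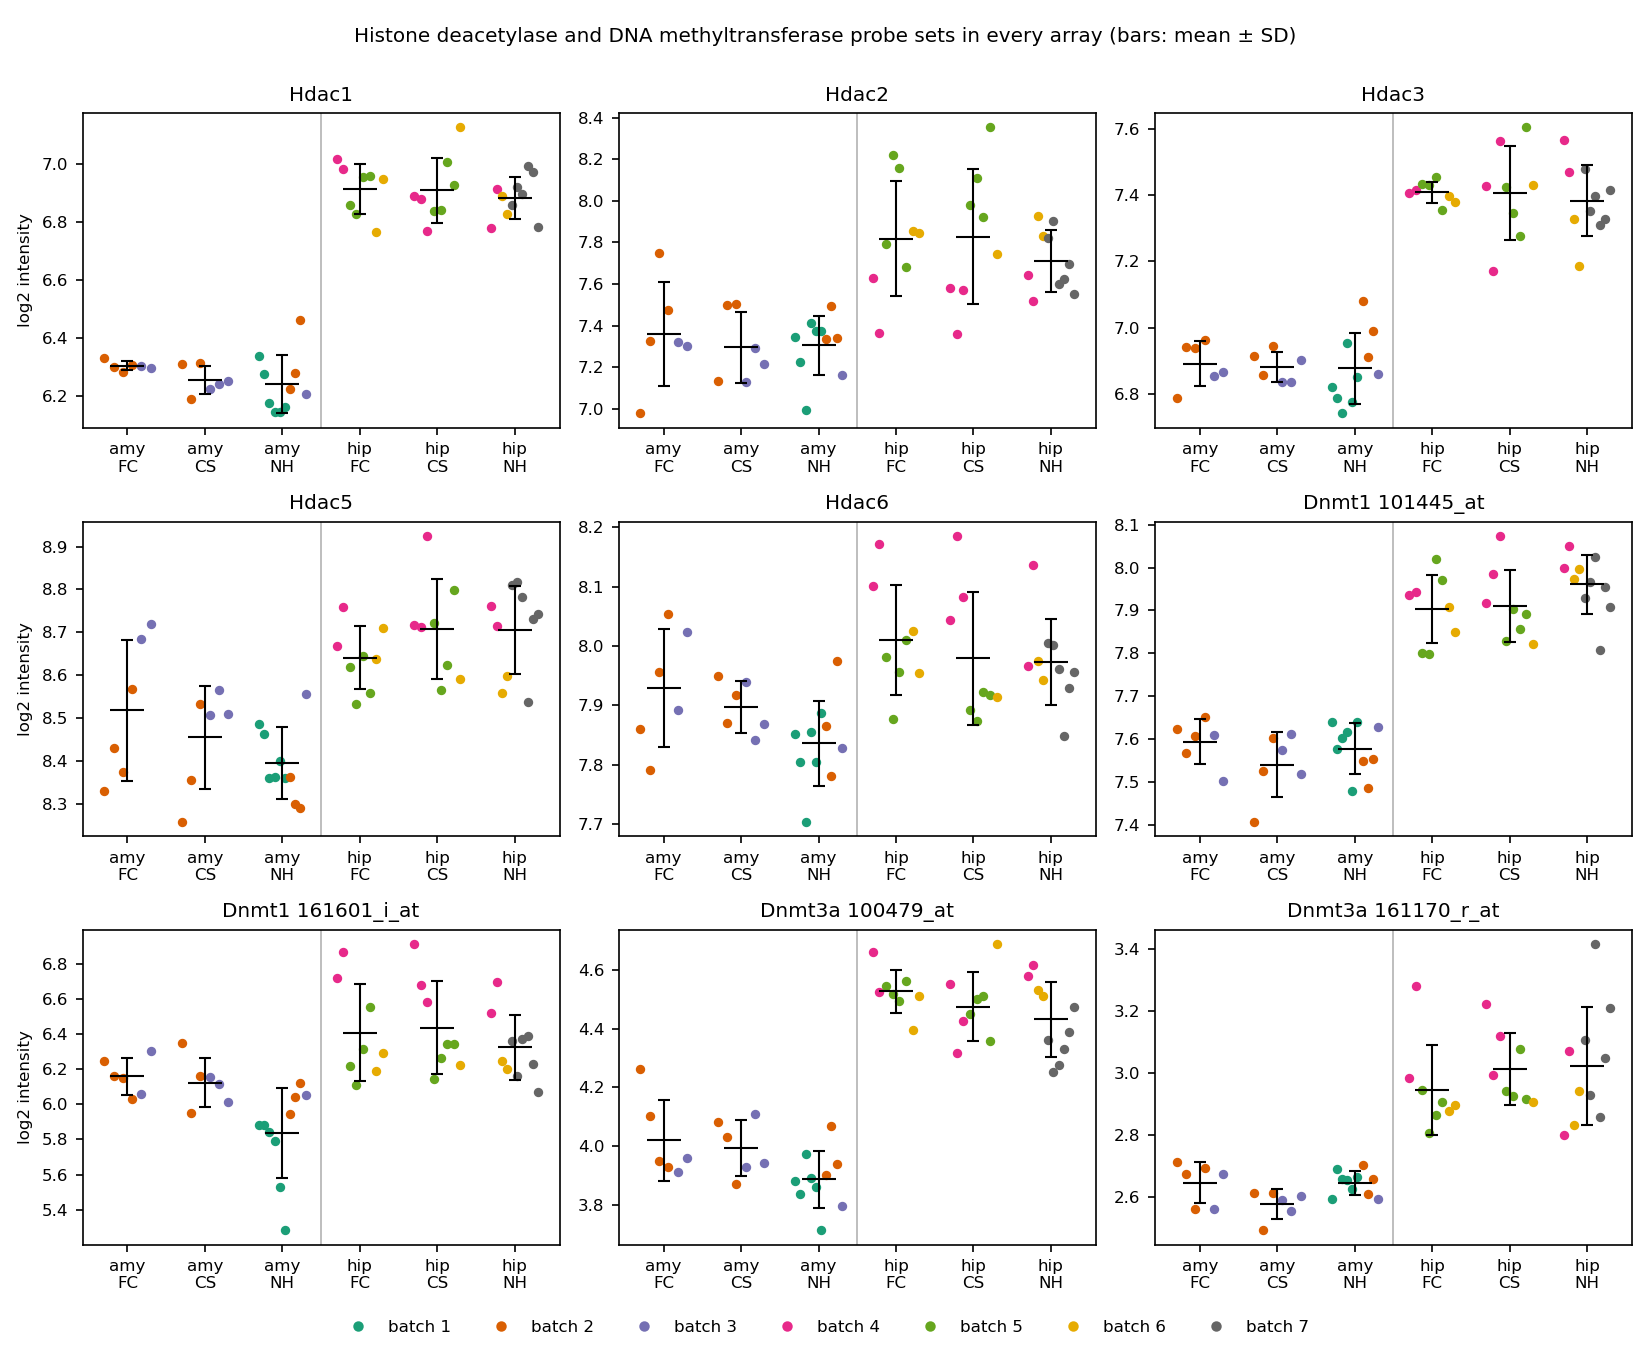
Log2 intensity of the 9 probe sets in every array, with the arms FC, CS and NH of amygdala (amy) and then of hippocampus (hip) along the horizontal axis. Each point is an array coloured by its processing batch, and black marks give the mean ± SD of each arm. The arms overlap in every panel. Batch 1 lies below the other amygdala batches for Dnmt1 161601_i_at, and the batch with the highest mean in hippocampus, batch 5 for Hdac2 and batch 4 for Hdac6, overlaps other batches. Array medians differ between the tissues, so their levels are not compared.

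Array medians were 52.3 to 56.1 intensity units in amygdala and 76.5 to 80.8 in hippocampus, and no level was tested between tissues. The rank of a probe set within its own array is used in its place. The Hdac5 probe set lay, on average, at percentile 92.5 of all probe sets in amygdala arrays and at percentile 91.0 in hippocampus arrays. Hdac6 lay at percentile 87.4 in amygdala and 83.1 in hippocampus, Hdac2 at 79.9 and 79.5, Hdac3 at 72.7 and 72.9, and Hdac1 at 60.5 and 63.0. Dnmt1 is read by a probe set at percentile 83.8 in amygdala and 82.2 in hippocampus (101445_at) and by a dimmer one at 55.2 and 52.1 (161601_i_at). Both Dnmt3a probe sets, at percentile 20.0 in amygdala and 19.0 in hippocampus (100479_at) and at 2.07 and 2.80 (161170_r_at), lay among the dimmest 40% of each tissue, and they were tested only in the alternative without that filter. Ranks depend on each probe set's own brightness per transcript, so they do not order the genes by abundance. In Affymetrix naming, the suffixes _i_at and _r_at mark probe sets for which a full set of unique probes under the usual design rules was not available.

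The tissue labels were set against marker genes in the same way. Neurod6, a transcription factor gene of cortical and hippocampal pyramidal neurons, lay at percentile 35.0 in amygdala and 82.2 in hippocampus, and Prox1 and Dsp, markers of the dentate gyrus, were likewise higher in every hippocampus array. The other 3 of 6 hippocampal markers did not separate that way, since Wfs1 and Calb1 ranked above their hippocampus values in all amygdala arrays and Neurod1 overlapped. Tac2 and Cdh13, 2 of the 3 amygdala markers with a probe set, ranked higher in all amygdala arrays, whereas the remaining one, Rspo2, ranked lower there in all of them. Summed intensities of the 10 marker lists (hippocampal neurons, amygdala, oligodendrocytes, astrocytes, microglia, vessels, choroid plexus, striatum, interneurons and neurons) overlapped between arms for 10 of 10 lists in each of the 3 comparisons of both tissues.

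Hdac5 was the only gene of the set whose interval for a difference between arms left out 0. RefSeq's promoter window of Hdac5 on assembly GRCm38.p6 is printed here for that reason, at chr11:102230123-102230422 on the minus strand, from 250 bases before the transcription start to 50 bases after it. Capitals mark, from the 5′ end, a match to the MEF2 consensus, an E-box (CACGTG) and the core of a cAMP response element (TGACGT).
Hdac5 promoter: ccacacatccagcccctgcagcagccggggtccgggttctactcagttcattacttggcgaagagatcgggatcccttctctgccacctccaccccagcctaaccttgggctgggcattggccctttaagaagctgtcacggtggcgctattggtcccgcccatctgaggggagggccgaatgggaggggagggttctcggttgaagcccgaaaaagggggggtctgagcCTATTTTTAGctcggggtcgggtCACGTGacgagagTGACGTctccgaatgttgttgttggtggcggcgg

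The MEF2 match covers positions 231 to 240 of that window, which end 11 bases before the transcription start. The E-box covers positions 254 to 259 and the cAMP element core positions 267 to 272, and both lie after the transcription start. Both strands were searched, and the 3 matches do not overlap each other. Of all 32851 promoter windows in the RefSeq table, 3.19% hold the MEF2 consensus, 7.15% hold CACGTG and 7.51% hold TGACGT. The table holds 10 windows for 6 of the genes (Hdac2, Hdac5, Hdac6, 3 for Dnmt1, 3 for Dnmt3a and Dnmt3b). Hdac5 has the 1 window of the 10 with the MEF2 consensus and the 1 with the cAMP element core. The E-box CACGTG also occurs in a Dnmt3a window, and GCGGGGGCG, the EGR motif found in 2.91% of all windows, occurs in the Dnmt3b window. None of the 10 holds the full cAMP element TGACGTCA (1.79% of all windows), the AP-1 motif TGANTCA (7.81%) or the CArG box consensus of serum response factor (1.63%). The Sp1 motif GGGCGG occurs in 8 of the 10, and in 35.7% of all windows. The windows hold 2 to 47 CpG dinucleotides, with 18 in that of Hdac5, and the median of all windows is 7.

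In amygdala, Hdac5 log2 intensity had a lowest, median and highest value of 8.33, 8.50 and 8.72 in FC arrays, 8.26, 8.51 and 8.57 in CS arrays, and 8.29, 8.36 and 8.56 in NH arrays. The arms overlapped, and the 2 highest of all 22 arrays were FC arrays of batch 3. Means were 8.52 ± 0.16 in FC, 8.46 ± 0.12 in CS and 8.39 ± 0.08 in NH (SD, n = 6, 6 and 10). With batch as a block, Hdac5 was 0.123 higher in FC than in NH on the log2 scale (SE 0.056, 95% interval 0.008 to 0.239, 1.09-fold). That difference had an unadjusted p of 0.0367 and did not pass after adjustment (limma, adjusted p = 0.894).

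The Hdac5 difference had the same sign within each batch that held both arms. In batch 2 the FC arrays read 8.33, 8.37, 8.43 and 8.57, against 8.29, 8.30 and 8.36 in NH arrays, and 3 of the 4 FC arrays lay above all 3 NH arrays. In batch 3 the FC arrays read 8.69 and 8.72, against 8.56 in the single NH array. The mean difference was 0.108 in batch 2 and 0.147 in batch 3. For FC minus CS the blocked difference in amygdala was 0.099 (95% interval -0.005 to 0.203), and for CS minus NH it was 0.025 (-0.093 to 0.142). Leaving out any one array kept the FC minus NH difference between 0.097 and 0.149.

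Microglial and interneuron markers were mostly higher in FC than in NH amygdala arrays of the same batch. The summed intensity of 5 microglial genes (Csf1r, C1qa, C1qb, Cx3cr1 and Cd68) was 687 to 732 in FC amygdala, 635 to 728 in CS amygdala and 612 to 689 in NH amygdala. Within batch 2 it was 687 to 732 in FC, 683 to 728 in CS and 653 to 689 in NH. Within batch 3 it was 693 to 701 in FC, 635 to 668 in CS and 636 in NH. Interneuron genes (Gad1, Gad2, Sst, Pvalb and Npy) were summed likewise. Within batch 2 that sum was 3670 to 3860 in FC, 3540 to 3920 in CS and 3570 to 3670 in NH. It was 3620 to 3640 in FC, 3430 to 3570 in CS and 3490 in NH within batch 3. Some other lists were lower in FC, such as astrocytes in batch 3, at 768 to 800 against 834 in NH. The part of these marker lists in the Hdac5 difference was not tested.

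**Figure D2:**
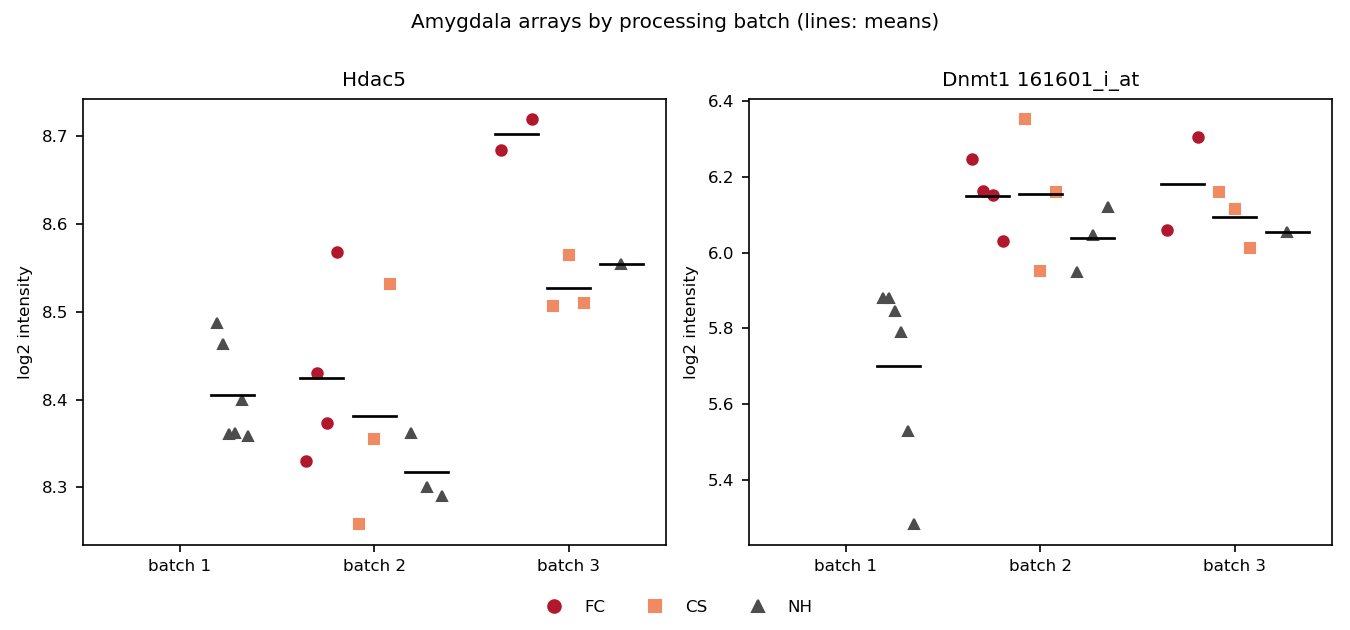
Log2 intensity of Hdac5 (left) and of Dnmt1 161601_i_at (right) in the 22 amygdala arrays, split by processing batch on the horizontal axis. Circles are FC, squares CS and triangles NH arrays, and lines give the mean of each arm in a batch. For Hdac5, both FC arrays of batch 3 lie above the NH array of that batch, and for Dnmt1 the 6 NH arrays of batch 1 lie between 5.28 and 5.88, below all arrays of the other batches.

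In hippocampus, Hdac5 did not follow that order. Its lowest, median and highest values were 8.53, 8.64 and 8.76 in FC arrays, 8.57, 8.71 and 8.93 in CS arrays, and 8.54, 8.74 and 8.82 in NH arrays. The arms overlapped, with the highest reading in a CS array. The blocked difference was 0.016 for FC minus NH (95% interval -0.110 to 0.142), 0.068 for CS minus NH (-0.060 to 0.195) and -0.051 for FC minus CS (-0.147 to 0.045). Set against each other, the FC minus CS difference of Hdac5 was 0.15 larger in amygdala than in hippocampus (95% interval 0.015 to 0.285, unadjusted p = 0.0307). This did not pass over the 7242 probe sets tested in both tissues (limma, adjusted p = 1.00), of which 0.00% were called for FC minus CS. The joint fit treats the arrays of the tissues as independent, so its p and intervals would not hold as given if the tissues share animals. The FC minus NH difference of Hdac5 was 0.107 larger in amygdala, with an interval of -0.055 to 0.269.

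Hdac6, the tubulin deacetylase gene, differed little between arms. Its lowest, median and highest log2 values in amygdala were 7.79, 7.92 and 8.05 in FC, 7.84, 7.89 and 7.95 in CS, and 7.70, 7.84 and 7.98 in NH. In hippocampus they were 7.88, 8.00 and 8.17 in FC, 7.87, 7.92 and 8.19 in CS, and 7.85, 7.96 and 8.14 in NH. All arms overlapped in both tissues. The blocked FC minus NH difference of Hdac6 was 0.067 in amygdala (95% interval -0.046 to 0.181) and 0.062 in hippocampus (-0.037 to 0.161). Within each batch that held both arms the sign was positive, at 0.042 and 0.128 in amygdala batches 2 and 3 and at 0.086 and 0.031 in hippocampus batches 4 and 6, but neither tissue's value passed (limma, adjusted p = 0.894 in amygdala and 1.00 in hippocampus). Single arrays bore on its size, which fell to 0.039 in amygdala without an NH array of batch 2 and to 0.019 in hippocampus without an NH array of batch 4.

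Among the class I genes, Hdac2 had the widest spread. In amygdala its lowest, median and highest log2 values were 6.98, 7.33 and 7.75 in FC, 7.13, 7.26 and 7.51 in CS, and 7.00, 7.34 and 7.49 in NH. In hippocampus they were 7.36, 7.82 and 8.22 in FC, 7.36, 7.83 and 8.35 in CS, and 7.52, 7.67 and 7.93 in NH. The NH range of hippocampus lay inside both other ranges.

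The direction of Hdac2 in hippocampus depended on batch. Plain arm means were 7.82 ± 0.28 in FC, 7.83 ± 0.33 in CS and 7.71 ± 0.15 in NH (SD, n = 8, 8 and 10), so that FC minus NH was 0.107 without batch. With batch as a block the same difference was -0.097 (95% interval -0.302 to 0.109), with -0.086 within batch 4 and -0.029 within batch 6. Batch means of Hdac2 were 7.52 in batch 4, 8.03 in batch 5, 7.84 in batch 6 and 7.70 in batch 7, and batch 5, the highest, held FC and CS arrays without any NH array. In amygdala the blocked FC minus NH difference was 0.038 (-0.180 to 0.256), and CS minus NH was 0.000 (-0.222 to 0.222).

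Hdac1 and Hdac3 varied less. Hdac1 log2 values in amygdala were 6.29, 6.30 and 6.33 (lowest, median and highest) in FC, 6.19, 6.25 and 6.31 in CS, and 6.15, 6.22 and 6.46 in NH. In hippocampus they were 6.77, 6.95 and 7.02 in FC, 6.77, 6.88 and 7.13 in CS, and 6.78, 6.89 and 6.99 in NH. The 6 FC arrays of amygdala lay within 0.05 of each other, inside the NH range. The blocked FC minus NH difference of Hdac1 was 0.015 in amygdala (95% interval -0.092 to 0.122) and 0.075 in hippocampus (-0.059 to 0.208), and CS minus NH was -0.027 (-0.136 to 0.082) and 0.073 (-0.062 to 0.208). The last value rested on the single CS array of batch 6, since it was 0.268 within that batch, -0.001 within batch 4 and 0.006 without that array.

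Hdac3, the catalytic subunit of the NCoR and SMRT complexes, read 6.79, 6.90 and 6.96 (lowest, median and highest) in FC amygdala, 6.84, 6.88 and 6.95 in CS amygdala, and 6.74, 6.86 and 7.08 in NH amygdala. In hippocampus it read 7.35, 7.41 and 7.46 in FC, 7.17, 7.43 and 7.61 in CS, and 7.19, 7.38 and 7.57 in NH. The FC range lay inside the NH range in both tissues. The blocked FC minus NH difference was -0.063 in amygdala (95% interval -0.168 to 0.041) and 0.009 in hippocampus (-0.138 to 0.155). In hippocampus the batches were of opposite sign, with -0.106 within batch 4 and 0.133 within batch 6, each from 2 FC and 2 NH arrays.

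**Figure D3:**
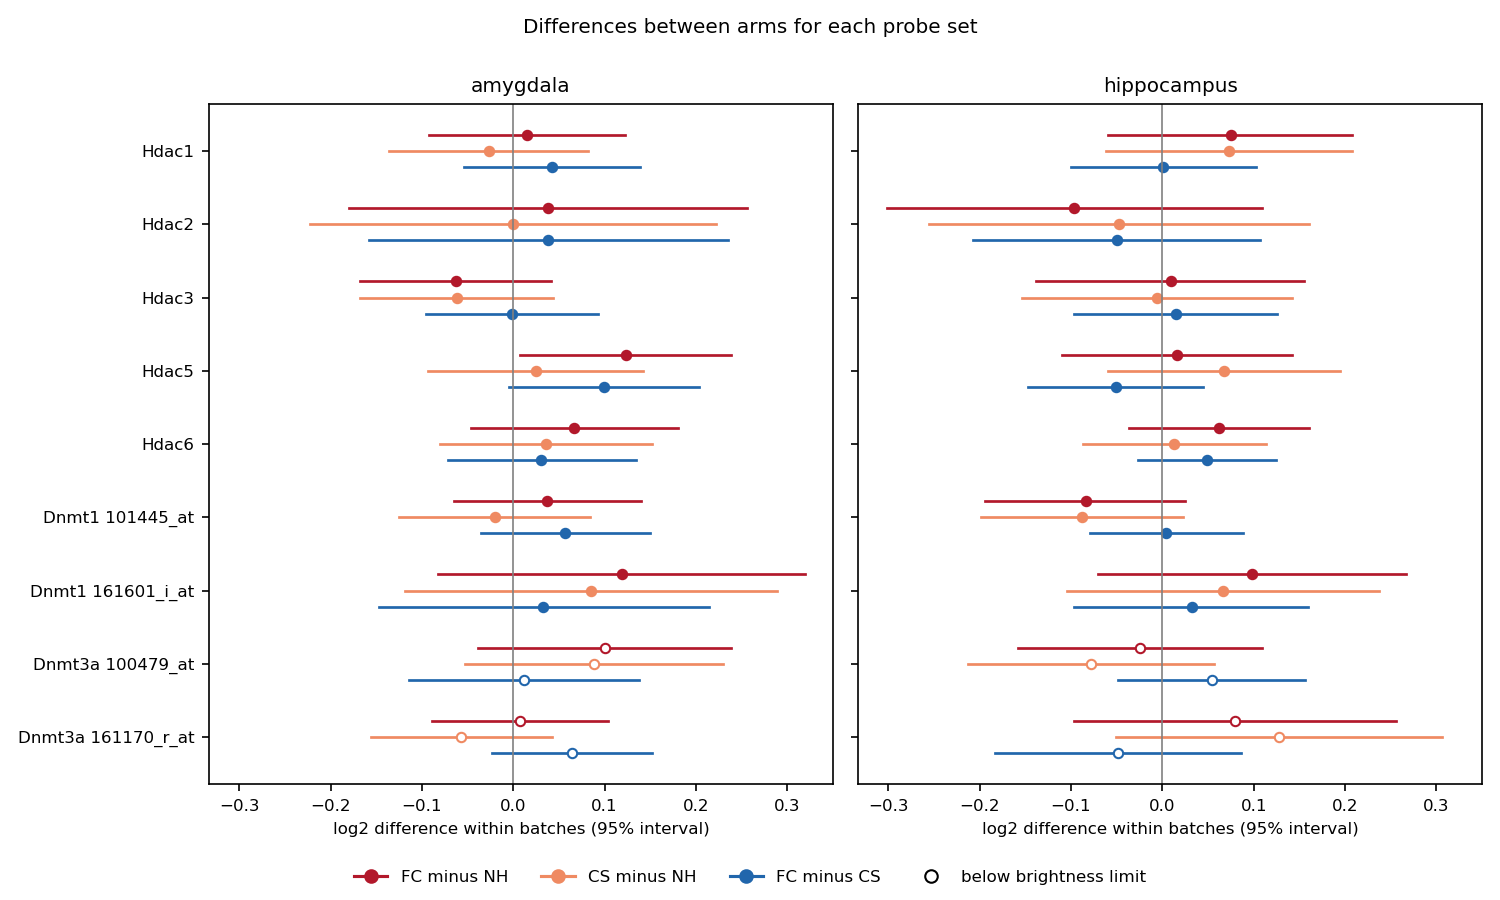
Log2 differences between arms with batch as a block for the 9 probe sets in amygdala (left) and hippocampus (right). Points are the estimates and lines their 95% intervals for FC minus NH, CS minus NH and FC minus CS, and open points are the Dnmt3a probe sets below the brightness limit. The interval of Hdac5 for FC minus NH in amygdala, 0.008 to 0.239, is the one that leaves out 0.

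Dnmt1, the maintenance methyltransferase gene, was read by 2 probe sets that did not move together. The brighter one, 101445_at, had lowest, median and highest log2 values of 7.50, 7.61 and 7.65 in FC amygdala, 7.41, 7.55 and 7.61 in CS amygdala, and 7.48, 7.59 and 7.64 in NH amygdala. In hippocampus it had 7.80, 7.92 and 8.02 in FC, 7.82, 7.90 and 8.07 in CS, and 7.81, 7.97 and 8.05 in NH. These ranges overlapped almost wholly. The blocked FC minus NH difference was 0.037 in amygdala (95% interval -0.065 to 0.140) and -0.084 in hippocampus (-0.194 to 0.025), and CS minus NH was -0.020 (-0.125 to 0.084) and -0.088 (-0.199 to 0.023). In hippocampus both FC arrays lay below both NH arrays within batch 4 and again within batch 6, at -0.086 and -0.105. With the mean of CS and FC set against NH the hippocampus value was -0.086 (-0.188 to 0.016), which did not pass (limma, unadjusted p = 0.0939, adjusted p = 1.00).

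The dimmer Dnmt1 probe set, 161601_i_at, differed most between plain arm means. In amygdala its lowest, median and highest log2 values were 6.03, 6.16 and 6.31 in FC, 5.95, 6.14 and 6.35 in CS, and 5.28, 5.88 and 6.12 in NH. The arms overlapped, and the low NH values were the 6 arrays of batch 1, with 5.28, 5.53, 5.79, 5.85, 5.88 and 5.88. The 4 NH arrays of batches 2 and 3 read 5.95, 6.05, 6.12 and 6.05. Plain means gave FC minus NH as 0.322 and CS minus NH as 0.288, against 0.119 (95% interval -0.082 to 0.319) and 0.085 (-0.119 to 0.289) with batch as a block. Batch 1 held NH arrays alone, so that batch and arm cannot be told apart there. In hippocampus the blocked FC minus NH difference of 161601_i_at was 0.098 (-0.070 to 0.267), opposite in sign to that of 101445_at.

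Dnmt3a lay below the brightness limit and was tested only without that filter, where neither of its probe sets was called in any comparison of arms (limma, 0 of 9 probe sets of the set in each). The brighter of its 2 probe sets, 100479_at, had lowest, median and highest log2 values of 3.91, 3.95 and 4.26 in FC amygdala, 3.87, 3.99 and 4.11 in CS amygdala, and 3.71, 3.89 and 4.07 in NH amygdala. In hippocampus it had 4.40, 4.52 and 4.66 in FC, 4.32, 4.48 and 4.69 in CS, and 4.25, 4.43 and 4.62 in NH. The arms overlapped in both tissues. The blocked FC minus NH difference was 0.100 in amygdala (95% interval -0.039 to 0.239) and -0.024 in hippocampus (-0.158 to 0.109). The other probe set, 161170_r_at, gave 0.008 in amygdala (-0.089 to 0.104) and 0.080 in hippocampus (-0.097 to 0.256), so that the signs of the 2 probe sets were alike in amygdala and opposite in hippocampus. No level of the gene can be read from probe sets this dim.

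As a group the 7 tested probe sets leaned to neither side by more than a few hundredths. In amygdala, 6 of 7 were positive for FC minus NH with a median of 0.038, against 55.2% positive and a median of 0.010 over all tested, and 3 of 7 were positive for CS minus NH with a median of 0.000, against 53.8% and 0.007. For FC minus CS in amygdala, 6 of 7 were positive with a median of 0.038, against 51.8% and 0.002. In hippocampus, 5 of 7 were positive for FC minus NH with a median of 0.016, against 49.7% and 0.000, and 4 of 7 for CS minus NH with a median of 0.013, against 50.5% and 0.001. For FC minus CS in hippocampus, 5 of 7 were positive with a median of 0.004, against 50.4% and 0.000. The FC minus NH and CS minus NH comparisons of a tissue share their NH arrays. Tests of the difference between tissues called 0 of 7 in each comparison of arms, against 0.00% of the probe sets tested in both. At an unadjusted p under 0.05, the single such difference was Hdac5 for FC minus CS. The share of all probe sets at that p was not counted for these tests, so no weight is put on it.

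Processing batch, after arm, took a larger share of the variance than arm, after batch, for 6 of the 9 probe sets in amygdala. In hippocampus it did so for 8 of 9, where there were more batches than arms. This was not counted over all probe sets, so it is not read as a trait of these genes. A test between batches with arm in the fit called 2 of 7 probe sets in amygdala, against 26.2% of all tested, and 3 of 7 in hippocampus, against 25.0%. In amygdala these were Hdac5 (limma, adjusted p = 0.00525), whose batch means were 8.41 in batch 1, 8.38 in batch 2 and 8.59 in batch 3, and Dnmt1 161601_i_at (adjusted p = 0.0320), with 5.70, 6.12 and 6.12. In hippocampus they were Hdac2 (adjusted p = 0.00045), Hdac6 (adjusted p = 0.00537) and Dnmt1 161601_i_at (adjusted p = 4.3e-05). Hdac6 averaged 8.10 in batch 4, against 7.93, 7.96 and 7.95 in batches 5, 6 and 7, and Dnmt1 161601_i_at averaged 6.71 in batch 4, against 6.29, 6.23 and 6.27. Batch took up 61.3% of the variance of Hdac2 in hippocampus after arm and 50.3% of that of Hdac5 in amygdala.

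**Figure D4:**
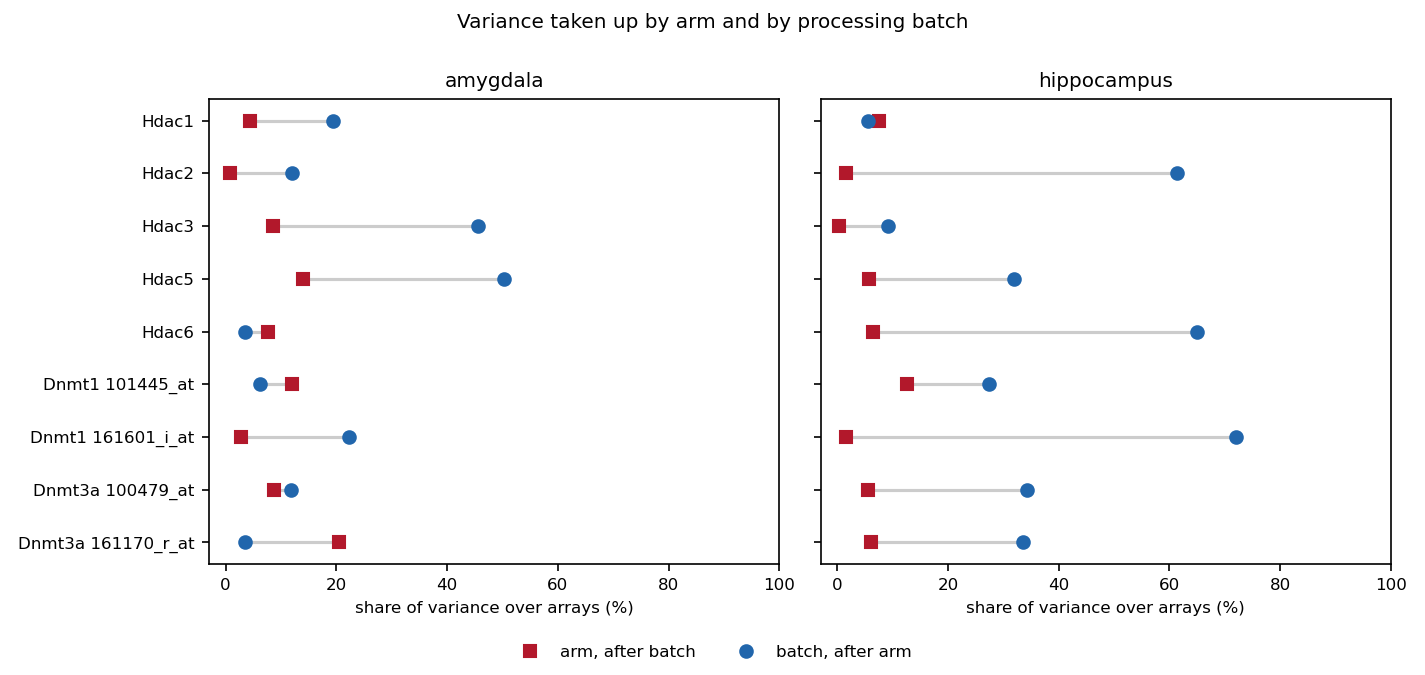
Share of the variance over arrays, in percent, taken up by arm after batch (squares) and by batch after arm (circles) for the 9 probe sets in amygdala (left) and hippocampus (right). The circles of Hdac2, Hdac6 and Dnmt1 161601_i_at in hippocampus lie at 61.3%, 65.0% and 72.0%, and no square lies above 20.5%.

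The genes were then compared by how they varied from array to array once arm and batch means were removed. Over the 34 pairs of probe sets of different genes, Pearson r ran from -0.568 to 0.515 in amygdala (22 arrays, median 0.082) and from -0.366 to 0.575 in hippocampus (26 arrays, median -0.006). The sign was the same in both tissues for 24 of the 34 pairs. Hdac1 and Dnmt1 161601_i_at had r of 0.515 in amygdala and 0.505 in hippocampus, and Hdac2 and Hdac3 had 0.451 and 0.467, and these were the 2 pairs above 0.4 in both. Dnmt3a 100479_at ran opposite to Hdac2, Hdac5, Hdac6 and Dnmt1 101445_at in both tissues, with r of -0.556, -0.507, -0.568 and -0.229 in amygdala and -0.225, -0.358, -0.338 and -0.366 in hippocampus. The other Dnmt3a probe set, 161170_r_at, did not share this beyond Hdac2. Against the same probe sets it had -0.567, 0.029, 0.169 and -0.061 in amygdala and -0.366, 0.232, 0.356 and 0.275 in hippocampus. Both Dnmt3a probe sets lie below the brightness limit. The 2 probe sets of Dnmt1 had r of -0.175 in amygdala and 0.153 in hippocampus, and those of Dnmt3a had 0.085 and 0.100, inside the range of pairs of different genes. All values of an array share its RNA, labelling and normalization, so these are descriptions only.

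**Figure D5:**
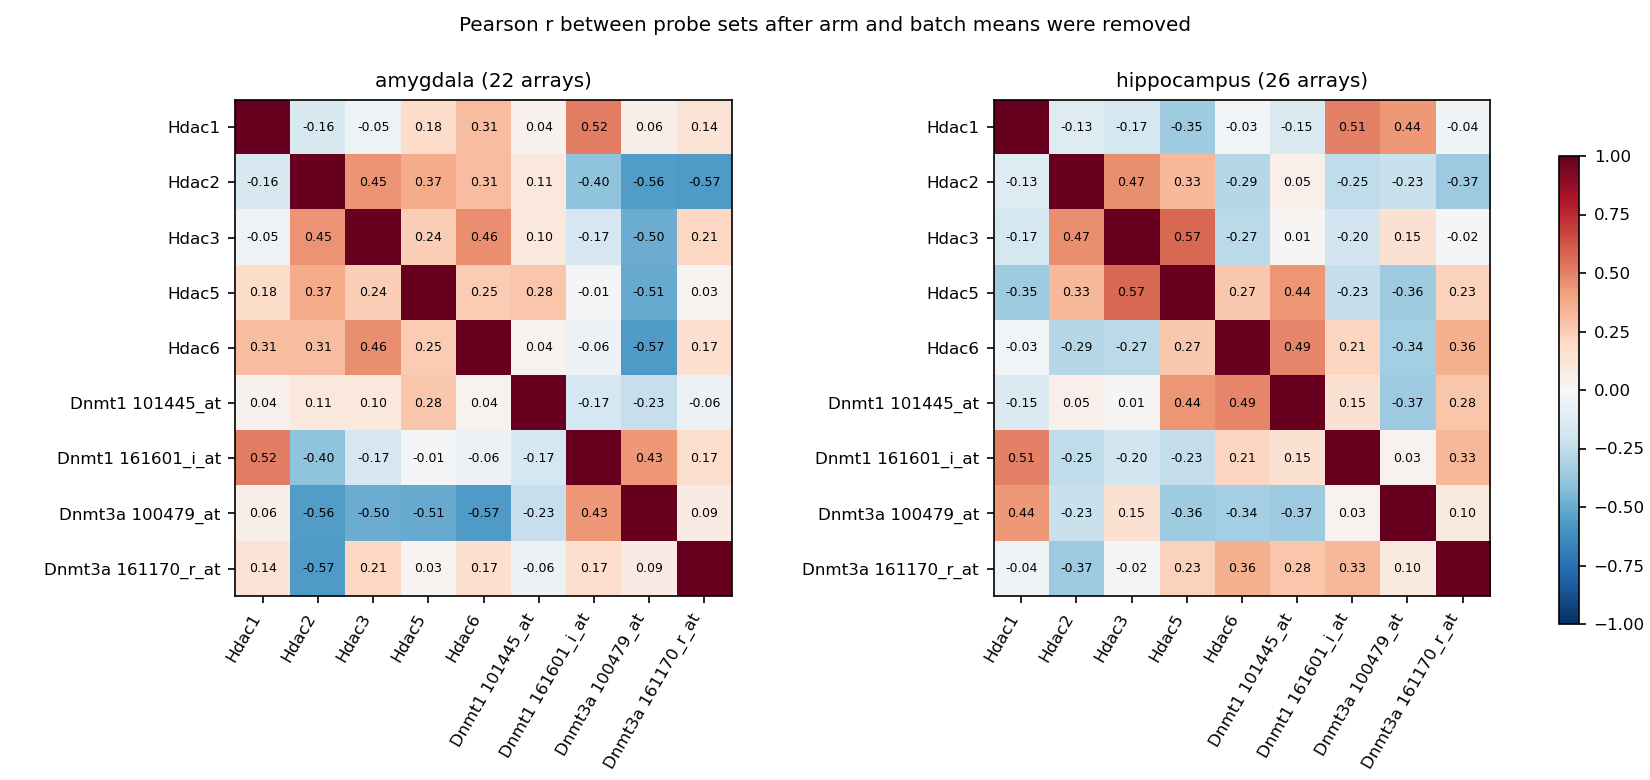
Pearson r between the 9 probe sets in amygdala (left, 22 arrays) and hippocampus (right, 26 arrays), computed from residuals after arm and batch. Red is positive and blue negative. Hdac1 with Dnmt1 161601_i_at and Hdac2 with Hdac3 are red in both panels, and Dnmt3a 100479_at is blue against Hdac2, Hdac5, Hdac6 and Dnmt1 101445_at in both.

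Among all tested probe sets of other genes, the one most like each gene by the same measure was a different gene in each tissue. In amygdala these were Fastk for Hdac1 (r = 0.890), Gnai2 for Hdac2 (0.902), Wdr45b for Hdac3 (0.838), Nacc2 for Hdac5 (0.840), Pfkm for Hdac6 (0.844), Pde4b for Dnmt1 (0.786) and Eif4h for Dnmt3a (0.822). In the hippocampus arrays the same pairs had r of 0.233, 0.562, 0.543, 0.100, -0.170, 0.523 and 0.309. In hippocampus the most alike were Med27 for Hdac1 (0.838), BC005624 for Hdac2 (0.865), Arih2 for Hdac3 (0.884), Pcp4l1 for Hdac5 (0.808), Ass1 for Hdac6 (0.774), Cavin1 for Dnmt1 (0.754) and Abt1 for Dnmt3a (0.790). In the amygdala arrays these pairs had r of 0.111, 0.751, 0.749, -0.004, 0.434, 0.406 and 0.225. The likeness of Hdac2 with BC005624 and of Hdac3 with Arih2 thus stayed near 0.75 in the tissue that did not choose it, whereas that of Hdac5 with Pcp4l1 and of Hdac6 with Pfkm did not carry over. In the tissue where a partner was picked, its r is high by that choice. Some lower-ranked partners carried over as far, such as Oaz2 with Hdac2, at 0.786 in amygdala. Others did not, such as H2ax with Hdac3, at 0.04 in amygdala. The brightest probe set of each gene was used, and that of Dnmt3a lies below the brightness limit.

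Other genes of the same pathways gave no call either. A list of 72 genes covered other deacetylases and sirtuins, corepressor subunits, acetyltransferases, the MEF2 partners of class IIa enzymes, readers of methylated DNA with partners of Dnmt1, and enzymes of DNA demethylation, and 42 of them had a probe set. In amygdala 39 probe sets were tested and in hippocampus 38, and 0 rose and 0 fell in each comparison of arms (limma). At an unadjusted p under 0.05 there were 0 to 2 per comparison, against 0.765% to 5.85% of all probe sets tested. By role, the tested probe sets in amygdala were 3 of other deacetylases, 17 of corepressor subunits, 5 of acetyltransferases, 8 of MEF2 genes, 5 of readers and partners and 1 of demethylation, and their median FC minus NH differences were 0.114, 0.038, 0.019, -0.010, 0.002 and 0.068. In hippocampus the medians were -0.015, 0.011, 0.029, 0.036, 0.012 and -0.071, over 3, 17, 6, 7, 4 and 1 probe sets.

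The genes with the smallest p for FC minus NH in amygdala were Sirt3, the mitochondrial deacetylase, at 0.185 (95% interval 0.048 to 0.322, unadjusted p = 0.0104), and Sirt2, a tubulin deacetylase, at 0.114 (-0.013 to 0.241). On the lower side they were Mef2b at -0.099 (-0.240 to 0.041) and the demethylase gene Kdm1a at -0.075 (-0.202 to 0.052). In hippocampus they were Mef2c at 0.239 (0.036 to 0.442, limma, unadjusted p = 0.0230) and Uhrf1, which brings Dnmt1 to newly copied DNA, at 0.129 (-0.006 to 0.265). The 3 other Mef2c probe sets gave 0.13, 0.08 and 0.07. Values of a gene's other probe sets are from the fit without the brightness filter, whether or not they lay above the limit. On the lower side, the genes with the smallest p in hippocampus were Suds3 at -0.145 and Mef2d at -0.126, both with intervals across 0. The other Suds3 probe set gave 0.05. For CS minus NH the smallest p in amygdala was that of Crebbp, the acetyltransferase gene of CREB-binding protein, at 0.157 (0.032 to 0.282), and in hippocampus that of Chd4, a subunit of the NuRD complex read by a probe set of the type shared within gene families, at -0.162 (-0.347 to 0.023). For FC minus CS it was that of Tbl1x in amygdala, at 0.114 (0.003 to 0.226), while its other probe set gave -0.05. In hippocampus it was that of Mef2c, at 0.161 (0.005 to 0.316), while its 3 other probe sets gave 0.03, -0.01 and -0.09. None of these passed after adjustment, with adjusted p of 0.894 for Sirt3 and 1.00 for Mef2c in FC minus NH and of 0.942 for Crebbp (limma).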

How the data were processed

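The values used were the deposited series table of probe set intensity on a linear scale, which the authors made by RMA, per the submitters' processing notes, with no version given. Array medians differ between the tissues. Each tissue may have been normalized separately, which was not tested, and levels were not tested between them. RMA shares information between arrays and compresses differences of dim probe sets.

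The log2 of each intensity was taken with 0 added. Of 12488 probe sets, 66 array controls were left out. Of the rest, 10833 name 1 gene in the platform annotation, 396 several and 1193 none. In each tissue the dimmest 40% by mean were left out, and 7453 were tested with limma 3.58.1 (lmFit and eBayes, R 4.3.3, statmod 1.5.0) with arm and processing batch as fixed terms. Batches of a single arm then add to the spread but not to a difference, so each difference from NH rests on 4 NH arrays per tissue. A joint fit of both tissues gave the differences between them. All p-values are two-sided and adjusted over all tested probe sets by the Benjamini-Hochberg method (threshold 0.05). Arrays of a tissue correlated at r of 0.982 to 0.9986 in hippocampus and 0.987 to 0.9984 in amygdala. The fits were tested on simulated data. The number of arrays limits the precision.

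The genes and lists were chosen with earlier results of these data known. Every probe set of the 8 genes is named. Of the related list, genes with the smallest p in each direction are named for FC minus NH. For CS minus NH and FC minus CS, only the gene with the smallest p in each tissue is named, whatever its direction. For the mean of CS and FC against NH none is named. All come from probe sets that name 1 gene, and for likeness the probe set with the highest r is named. Motifs were searched by exact letters on both strands of RefSeq promoter windows. Alternatives were no batch term, batch as a random block, single batches, batches of over 1 arm alone, the compared arms alone, array weights, a trended and robust prior, quantile normalization, 32 added before log2, no filter, a stricter filter of 60%, gene means and leaving out each array.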

Additional observations from a re-analysis of the deposited data

Results flagged for a closer look

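Of 54 groups of 6 to 10 arrays (9 probe sets in 6 arms), 1 held an array far from the others by Dixon's criterion, which marks about 1 group in 20 by chance. It was the dim Dnmt3a probe set 161170_r_at in hippocampus FC, where the array numbered 113 in batch 4 read 3.279 on the log2 scale. The next array read 2.983 and the lowest 2.807, so that the gap was 0.628 of the whole range of 8 arrays, against a critical value of 0.526. This probe set lies below the brightness limit, and without that filter it was not called in any comparison of arms.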

How the results depend on the processing

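No batch number or array number pairs samples across arms of a tissue. No paired analysis was possible because the arms of a tissue share no replicate number. Of 2073 single log2 differences recomputed under alternatives, 2043 stayed within the spread between arrays and on their side of the threshold, 28 moved by more than the spread between arrays, 2 came past the threshold and 0 called values changed sign. The 2 were Hdac5 for amygdala FC minus NH with array weights (0.141, limma, adjusted p = 0.0372) and Dnmt1 161601_i_at for the mean of CS and FC minus NH in amygdala without a batch term (0.305, adjusted p = 0.0187). The count of called probe sets of these genes thus became 1 in each. Those settings called 911 and 692 of all 7453 probe sets, against 7 with batch as a block and equal weights. Array weights ran from 0.208 for an FC array of batch 2 to 4.08 for an FC array of batch 3 in amygdala. For FC minus NH in amygdala, 211 probe sets were called without a batch term. Between batches in amygdala, 4 of 7 were called with array weights, where 55.6% of all probe sets were called, and 1 of 7 over batches that hold over 1 arm, where 18.4% were, against 2. In hippocampus 4 of 7 were called with array weights (42.7% of all) and with quantile normalization (27.1%), against 3. The cause of these shifts was not tested. Over all probe sets, calls without a batch term were 7 for hippocampus FC minus NH, 7 for CS minus NH and 12 for the mean of both, against 1 each, and 17 for amygdala CS minus NH, against 1. With array weights they were 3, 1 and 2 in hippocampus, 5 for amygdala CS minus NH and 75 for the amygdala mean. Batch 6 alone gave 38 calls for hippocampus FC minus CS, against 0, 7 for CS minus NH and 4 for FC minus NH, against 1 each. Leaving out any one array added no call among the 7 tested probe sets in a comparison of arms. Without the filter, 9 probe sets were tested, the 2 of Dnmt3a included, and 0 were called in each comparison of arms.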
